A study of Homo sapiens with 4 samples.

Results

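Knockdown of YAP and TAZ was compared with control siRNA in KGN cells that received no 8Br-cAMP. The comparison rests on 2 of the 4 arrays of the series, chosen by their titles, siYT and siNC, and it covers every gene read by a probe set with 1 gene symbol. KGN is an established line grown from a granulosa cell tumour of the human ovary, so a single tumour line stands for the granulosa cell here. Cells in siNC were transfected with negative control siRNA at 10 nM. In siYT the transfection held 5 nM of a YAP siRNA and 5 nM of a TAZ siRNA. For both, the medium was replaced after 48 h without further treatment and left for another 24 h. The other 2 arrays, siNC+8Br-cAMP and siYT+8Br-cAMP, had the same transfections and 0.5 mM 8Br-cAMP, a cell-permeable analogue of cyclic AMP, in the new medium. Each group was 1 array of RNA. No difference below has a replicate, so differences are given as sizes. The only p-values come from a fit over all 4 arrays and do not measure variation between cultures.

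YAP and TAZ (gene WWTR1) are transcriptional co-activators that bind DNA through TEAD factors. Of the Hippo kinases, MST activates LATS, and LATS phosphorylates YAP and TAZ and keeps them out of the nucleus. Stiff matrix, spreading and an intact actin cytoskeleton let them in. In granulosa cells they are known for promoting proliferation of the growing follicle, while differentiation, after the surge of luteinizing hormone, brings steroid synthesis and exit from the cell cycle.

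Of 19775 genes, 13063 were compared, those read above an intensity floor of 62.6 on at least 1 of the 2 arrays. The floor is the median of the whole table, and readings below it were set to it, so a fold against a reading at the floor is written as "at least". On both arrays 11508 genes were above the floor. Each gene is represented by its brightest probe set, and differences are log2 siYT minus log2 siNC. After knockdown, 1053 genes were at least 2-fold higher, which is 8.06% of the genes compared, and 873 were at least 2-fold lower, which is 6.68%. At 4-fold these counts were 103 and 158, and at 8-fold 16 and 16. Counts per list below are to be read against the 2-fold shares of all genes. The median difference was 0.04, and 63.8% of genes lay within 1.5-fold. As a measure of technical spread, differences from separate probe sets of 1 gene had an SD of 0.392 above 4 times the floor and 0.587 below that level. That spread leaves out variation between cultures. With the floor at the 75th percentile of the table, 389, the 2-fold counts were 500 and 511, and in the mean of all probe sets of a gene they were 613 and 586. That mean counts a set at the floor on both arrays as 0. Among genes past 2-fold with 2 or more probe sets above the floor, all sets agreed in direction for 83.1% of the higher and 81.1% of the lower genes. All sets passed 2-fold for 32% and 39.8%.

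Granulosa identity was read in part. Of 13 granulosa markers measured, 9 were above the floor in siNC and 8 in siYT. The transcription factors FOXL2, GATA4, GATA6 and WT1, the inhibin and activin subunits INHA and INHBA and the keratin KRT18 were above it on both arrays. The gonadal regulator NR5A1 and the receptors FSHR, AMHR2 and ESR2 were at the floor on both. Of 20 measured markers of leukocytes, endothelium, epithelium, oocytes, Sertoli cells, theca and stroma or muscle, 7 were above the floor on each array. Their summed intensity was 1830.2 in siNC and 4942 in siYT, of which PDGFRA, the stromal growth factor receptor, gave 553 and 3493. PTPRC, VWF, CDH5, EPCAM, CDH1, CLDN4, DDX4, DMRT1, DHH, CYP17A1, MYH11 and DES were at the floor on both arrays. The 3' to 5' ratio of the control probe sets, a sign of RNA integrity, was 1.07 in siNC and 1.12 in siYT for ACTB and 0.962 and 0.888 for GAPDH.

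**Figure D1:**
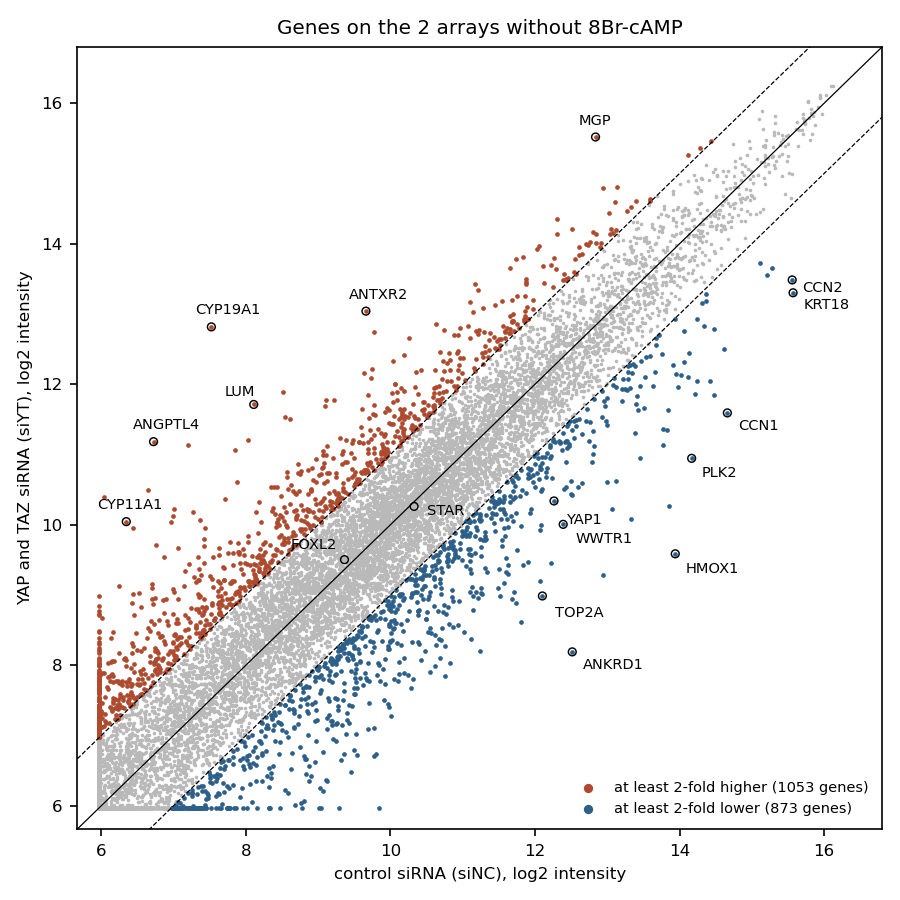
Each point is a gene on the log2 intensity scale, siNC on the horizontal and siYT on the vertical axis, with dashed lines at 2-fold and values at the floor lying along the edges. Red marks the 1053 genes at least 2-fold higher and blue the 873 at least 2-fold lower. CYP19A1 stands farthest above the diagonal (39.2-fold) and HMOX1 and ANKRD1 farthest below (20.4-fold and 20-fold), while STAR and FOXL2 lie on it.

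Both siRNA targets were lower on siYT, and every probe set of either gene was past 2-fold. WWTR1 read 5366 in siNC against 1028 in siYT, which is 5.22-fold lower, and its other sets were 2.80-fold (490.4 and 175) and 2.17-fold lower (259 and 119). YAP1 read 4915 in siNC against 1295 in siYT, 3.8-fold lower. The remaining YAP1 sets were 10.2-fold (1804 and 177) and 3.34-fold lower (2024 and 605). A 3' array reads remaining transcript and not protein.

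The DNA-binding partners of YAP and TAZ moved less than the targets. TEAD1, the TEAD gene with 3 sets above the floor, read 7514 in siNC and 4723 in siYT (log2 -0.67, sets from -0.81 to -0.67). TEAD4 was 2.07-fold lower (509 and 246), while TEAD2 (0.73) and TEAD3 (-0.35) stayed under 2-fold. The VGLL proteins compete with YAP and TAZ for TEAD factors. VGLL4, which represses TEAD targets, was 2.06-fold higher, from 1138 to 2347, and VGLL3 was 3.61-fold lower, from 2989 to 828. VGLL3 and VGLL4 dropped below 2-fold when all probe sets of a gene were averaged (-0.87 and 0.78), and TEAD4 did so with a floor at the 75th percentile of the table (-0.39).

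Of 27 Hippo kinases and regulators compared, 2 were past 2-fold upward and 3 downward, with a median of 0.12. These are 7.41% and 11.1%, near the 8.06% and 6.68% of all genes. Of the core, the kinases STK4 (0.18), LATS1 (0.15) and LATS2 (-0.32), the scaffold SAV1 (0.12) and the membrane regulator NF2 (-0.16) were all within 1.5-fold by their representative sets. Other sets went as low as -1.78 for NF2 and -1.03 for LATS2, and as high as 1.09 for STK4. STK3, the other MST kinase, read 2053 in siNC and 1276 in siYT (-0.69). The LATS co-activator MOB1A read 1363 in siNC and 2562 in siYT (0.91, 4 sets from -0.96 to 0.91), and MOB1B was at -0.30. MAP4K4, a kinase that can act on LATS, was 5.56-fold higher (856 and 4755), with its other sets above the floor on both arrays between 0.35 and 1.73. The junctional scaffolds split, AMOTL2 being 9.56-fold lower (10331 and 1081) and its relative AMOTL1 3.49-fold higher (542 and 1892). AJUBA, a LIM protein that restrains LATS, was 3.67-fold lower with 3 sets between -2.04 and -1.72, and WWC1 (KIBRA) was 2.21-fold lower. AMOTL1 and WWC1 lost the 2-fold call in the mean of all sets (0.96 and -0.64).

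Promoters of 2 widely used YAP and TAZ target genes are printed because both hold the letters that TEAD factors recognise. Promoters are 300 bases, from 250 before the start of transcription to 50 after it, in the direction of the gene, as RefSeq gives them on GRCh38.p14. Capitals mark GGAATG, the reverse complement of CATTCC. ANKRD1 lies on the minus strand at chr10:90921038-90921337 and CCN2 on the minus strand at chr6:131951323-131951622.
ANKRD1: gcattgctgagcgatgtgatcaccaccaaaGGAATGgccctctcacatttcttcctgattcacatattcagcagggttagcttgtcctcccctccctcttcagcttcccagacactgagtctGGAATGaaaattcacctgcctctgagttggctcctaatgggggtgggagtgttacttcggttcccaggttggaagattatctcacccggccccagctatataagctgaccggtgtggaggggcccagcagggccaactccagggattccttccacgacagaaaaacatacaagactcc
CCN2: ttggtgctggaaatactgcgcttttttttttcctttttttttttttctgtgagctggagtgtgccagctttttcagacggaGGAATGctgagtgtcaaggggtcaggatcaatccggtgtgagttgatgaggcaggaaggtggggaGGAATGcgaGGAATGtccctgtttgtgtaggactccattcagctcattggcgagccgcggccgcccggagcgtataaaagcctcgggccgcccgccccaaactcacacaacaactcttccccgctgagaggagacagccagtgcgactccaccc
The ANKRD1 promoter holds 2 such matches and that of CCN2 holds 3. The promoter of AMOTL2, also on the target list and searched but not printed, holds 0. On either strand, CATTCC was found in 5 of the 14 promoters given for the YAP/TAZ target list (35.7%), in 11.1% of promoters of genes compared and in 14% of all 27305 promoters. Among promoters of genes at least 4-fold lower, the share was 10.2%. A match is a run of letters in this window and not a measured binding site.

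Of 20 genes on the YAP/TAZ target list that were compared, 9 were at least 2-fold lower, beside 6.68% of all genes, 0 were 2-fold higher, and 16 were below 0, with a median of -0.73. ANKRD1, a nuclear ankyrin-repeat protein and common YAP readout, read 5855 in siNC against 292 in siYT, 20-fold lower. The matricellular protein CCN1 read 25904 in siNC against 3087 in siYT, 8.39-fold lower, and its other set was 6.47-fold lower. CCN2 read 48232 in siNC against 11463 in siYT. That made it 4.21-fold lower, with an siYT reading still far above the floor. GADD45A, a stress-induced arrest gene, read 16131 in siNC against 3979 in siYT (4.05-fold), and TGFB2, a TGF-beta ligand, was 3.06-fold lower with 4 sets between -2.69 and -1.61. Tissue factor, F3, was 2.71-fold lower (9401 and 3471). ASAP1 (2.03-fold) and CRIM1 (2.02-fold) lay at the threshold, just inside it, and fell under it in the mean of all sets (-0.38 and -0.89). The remaining members showed smaller differences. MYOF (-0.77), FJX1 (-0.68), AXL (-0.64) and CCDC80 (-0.59) were lower by less than 2-fold, and PTPN14 (-0.24), LATS2 and NT5E (-0.12) were within 1.5-fold. These are representative sets, and other sets went as low as -1.21 for MYOF, -1.04 for CCDC80, -1.55 for PTPN14 and -1.03 for LATS2. NT5E sets ran from -0.62 to 0.86. IGFBP3 read 14063 in siNC and 23764 in siYT (0.76), and with ARHGEF17 (0.72), RBMS3 (0.46) and DOCK5 (0.42) it lay above 0.

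**Figure D2:**
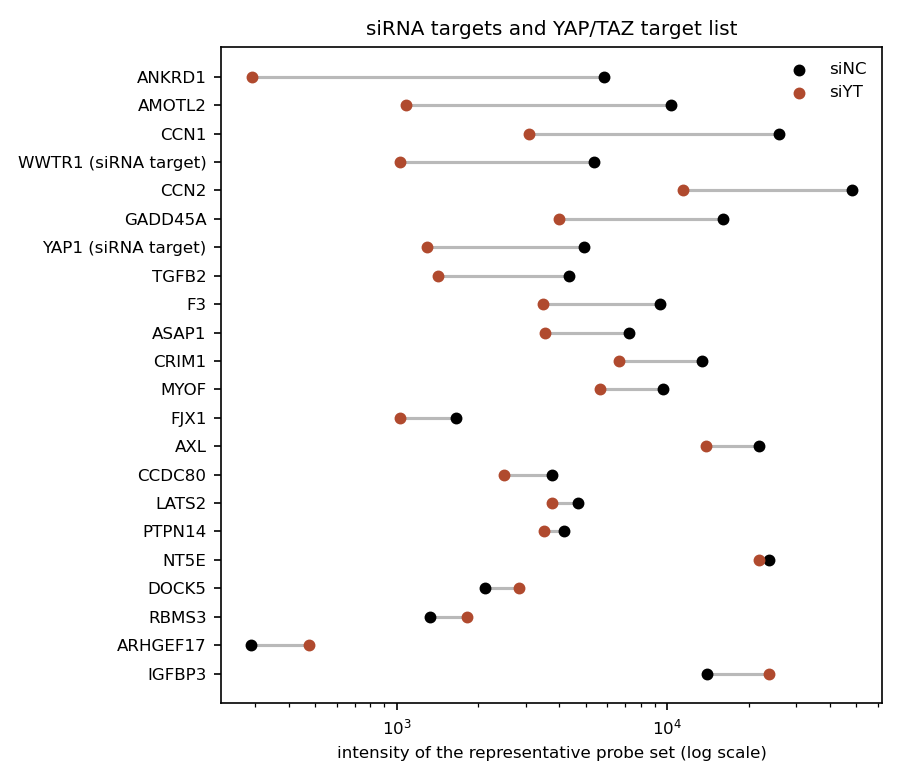
Intensity of the representative probe set in siNC (black) and siYT (red) on a log axis for YAP1, WWTR1 and the 20 genes of the YAP/TAZ target list, ordered by difference. ANKRD1, AMOTL2 and CCN1 show the widest gaps, from 20-fold to 8.39-fold lower, and 4 genes at the foot of the plot read higher in siYT.

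Cell division genes made up the largest group of lower transcripts among the lists described here. Over 7 lists that run from replication licensing to cytokinesis, 182 genes were compared, 133 (73.1%) were at least 2-fold lower and 1, the condensin subunit NCAPH2 at log2 1.25 (0.28 in the mean of all sets), was 2-fold higher. The median difference was -1.76, against 0.04 over all genes compared. These genes made up 15.2% of all genes at least 2-fold lower and 44.3% of those at least 4-fold lower. Of the 60 with 2 or more probe sets above the floor on both arrays, 54 had every set below 0 and 34 had every set past 2-fold. In a bulk sample, fewer dividing cells and less transcript per dividing cell cannot be told apart.

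Promoters of 4 of these genes are printed to show elements known from cell cycle genes. In all 4, capitals mark CCAAT or its reverse complement ATTGG, the letters bound by NF-Y, and TTTGAA or TTCAAA, the cell cycle gene homology region (CHR) that the DREAM and MuvB complexes bind. They also mark the E2F elements TTTGGCG and TTTCCCG on either strand. CCNB2 holds 4 CCAAT and 1 CHR match, TOP2A 4 and 2, and CEP55 1 and 2. CDC45 holds 4 CCAAT matches, 1 E2F match and 0 CHR matches. The promoters are those of CCNB2 at chr15:59104896-59105195 on the plus strand, TOP2A at chr17:40417847-40418146 on the minus strand, CEP55 at chr10:93496362-93496661 on the plus strand and CDC45 at chr22:19479670-19479969 on the plus strand.
CCNB2: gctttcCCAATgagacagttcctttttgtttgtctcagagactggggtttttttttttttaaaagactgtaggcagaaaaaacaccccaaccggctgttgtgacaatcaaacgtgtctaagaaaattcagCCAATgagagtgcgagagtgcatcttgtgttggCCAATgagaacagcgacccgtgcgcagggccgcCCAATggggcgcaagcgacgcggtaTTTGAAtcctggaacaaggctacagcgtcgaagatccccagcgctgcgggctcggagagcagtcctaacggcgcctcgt
TOP2A: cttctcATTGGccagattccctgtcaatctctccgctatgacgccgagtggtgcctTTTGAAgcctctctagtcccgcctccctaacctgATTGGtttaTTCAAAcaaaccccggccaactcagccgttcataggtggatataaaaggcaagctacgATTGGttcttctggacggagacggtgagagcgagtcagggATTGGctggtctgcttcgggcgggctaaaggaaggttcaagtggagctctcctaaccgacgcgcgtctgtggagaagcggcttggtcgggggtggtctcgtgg
CEP55: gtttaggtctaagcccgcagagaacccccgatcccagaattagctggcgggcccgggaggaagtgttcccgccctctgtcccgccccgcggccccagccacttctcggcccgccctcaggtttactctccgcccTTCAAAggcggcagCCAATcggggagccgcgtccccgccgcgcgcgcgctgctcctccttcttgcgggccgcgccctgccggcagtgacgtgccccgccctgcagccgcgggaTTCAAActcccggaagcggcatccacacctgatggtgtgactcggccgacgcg
CDC45: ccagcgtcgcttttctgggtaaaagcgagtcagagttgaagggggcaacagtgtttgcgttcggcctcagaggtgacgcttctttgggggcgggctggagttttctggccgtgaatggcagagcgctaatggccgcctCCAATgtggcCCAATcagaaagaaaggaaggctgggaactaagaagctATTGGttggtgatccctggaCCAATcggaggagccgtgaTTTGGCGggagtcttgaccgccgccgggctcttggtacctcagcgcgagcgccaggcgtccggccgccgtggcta
TTTGAA was found on either strand in 38.2% of the 152 promoters given for the cell cycle lists and in 36.2% of the 127 given for genes at least 4-fold lower. It was found in 10.1% of promoters of all genes compared and 15.4% of all promoters. CCAAT was found in 63.2% and 59.1% of the same sets, against 36.3% and 35.7%. Both stood in 27.6% of the cell cycle promoters and 4.21% of those of genes compared. An E2F element, TTTGGCG or TTTCCCG, stood in 25.0% of cell cycle promoters and 9.08% of those of genes compared. The 4-fold set is not separate from the cell cycle set, since 70 of its 158 genes are on those lists. At 2-fold the contrast was smaller. TTTGAA and CCAAT stood in 17.5% and 41.7% of promoters of lower genes, and in 13.1% and 35.6% of those of higher genes. Promoters of genes at least 4-fold higher held TTTGAA in 10.3% and CCAAT in 30.9%, close to the shares of all genes compared. Promoters of other lower cell cycle genes were searched too and are not printed. CDC25C held 0 CHR and 0 CCAAT matches, and CCNB1 and KIF20A each held 0 CHR and 2 CCAAT matches. RRM2 held 3 CCAAT and 0 E2F matches.

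Genes of entry into mitosis were lower nearly throughout. Of 34 mitotic kinases, cyclins and checkpoint genes, 31 were at least 2-fold lower, with a median 4.74-fold lower. CDK1, the mitotic cyclin-dependent kinase, read 8894 in siNC against 1580.1 in siYT, 5.63-fold lower, and its 3 sets above the floor lay between -2.49 and -2.11. Its cyclins CCNA2 (2920.4 and 505, 5.78-fold), CCNB1 (4.38-fold) and CCNB2 (2876 and 551, 5.22-fold) were lower too. The phosphatase CDC25C, which activates CDK1, read 356 in siNC and was under the floor in siYT, at least 5.68-fold lower. The spindle assembly checkpoint kinase BUB1B was 6.93-fold lower (1811 and 261). The Aurora kinases lay in the same range, AURKA at 6.1-fold (1243 and 204) and AURKB at 5.18-fold, with their partners CDCA8 at 6.35-fold and BIRC5 (survivin) at 4.92-fold. The transcription factors that drive these genes were also lower, FOXM1 by 4.23-fold (925 and 218) and MYBL2 by 6.66-fold (449 and 67.4, the latter near the floor).

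Chromosome segregation genes followed. Of 28 centromere and kinetochore genes, 23 were past 2-fold and all 28 lay below 0, with a median 3.93-fold lower. SPC25, of the NDC80 complex that holds microtubules, read 896 in siNC against 106 in siYT, and ZWINT, an outer kinetochore protein, read 3286 in siNC against 493 in siYT. These were 8.41-fold and 6.66-fold lower. CENPN, which binds the centromeric nucleosome, was 6.0-fold lower with 3 sets between -2.58 and -1.88. HJURP, the chaperone of CENPA, was 6.19-fold lower. Of 28 spindle motor and cytokinesis genes, 25 were past 2-fold and all lay below 0, with a median 4.47-fold lower. CEP55, which directs abscission, read 3585 in siNC against 391 in siYT, 9.17-fold lower. The kinesin KIF20A was 8.39-fold lower (874 and 104) and HMMR, a spindle protein, 7.28-fold lower (4294 and 589.7). KIF23, of the central spindle, was 5.93-fold lower by a set shared between transcripts. A set of its own gave -0.18 in log2, but was not above the floor on both arrays. Without shared sets, the counts past 2-fold were 20 of the mitotic and 15 of the spindle genes.

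Condensation and cohesion were more mixed, with 12 of 20 lower and a median of -1.19. TOP2A, the topoisomerase that untangles sister chromatids, read 4397 in siNC against 507 in siYT, 8.67-fold lower, and 6.90-fold by its other set. The condensin subunit NCAPG was 4.11-fold lower (1979 and 482), and NCAPH read 438 in siNC and under the floor in siYT. The proliferation marker MKI67 was 3.03-fold lower, with sets down to -2.27.

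**Figure D3:**
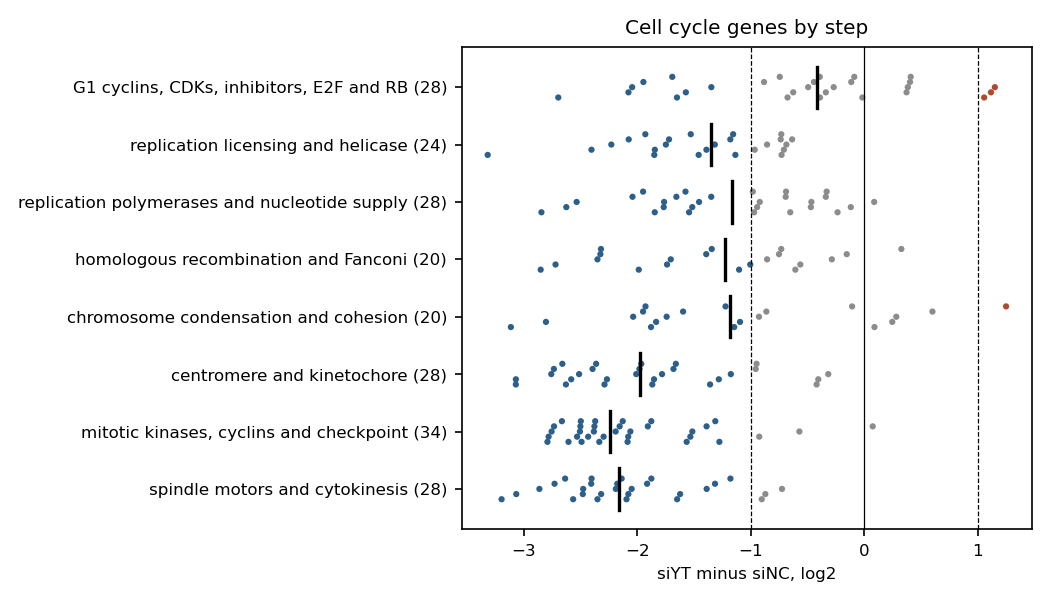
Each point is a gene, placed by log2 siYT minus siNC, in 8 lists with the number of genes compared in brackets, black bars at the medians and dashed lines at 2-fold. The mitotic, spindle and kinetochore lists have medians from -2.25 to -1.97, the replication lists lie nearer 0, and the G1 list spreads to both sides with a median of -0.42.

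Replication genes were lower by less than the mitotic ones in the median. Of 24 licensing and helicase genes, 16 were past 2-fold and all lay below 0 (median -1.36). CDC45, of the replicative helicase, read 625 in siNC and was under the floor in siYT, at least 9.99-fold lower. The helicase subunits MCM3 (2.49-fold), MCM4 (2.23-fold) and MCM5 (2.75-fold) were lower, MCM7 stayed at -0.73, and the loading factor CDC6 was 3.81-fold lower (733 and 192). Of 28 polymerase and nucleotide supply genes, 14 were past 2-fold (median -1.17). RRM2, the ribonucleotide reductase subunit that limits nucleotide supply, read 8601 in siNC against 1196 in siYT, 7.19-fold lower, and the thymidylate synthase TYMS read 13940.0 in siNC against 2256 in siYT, 6.18-fold lower. UHRF1, which maintains DNA methylation, was 5.8-fold lower. PCNA, the polymerase clamp, lay just outside the threshold at -0.97. Of 20 homologous recombination and Fanconi genes, 12 were past 2-fold, with EXO1 (7.23-fold), BLM (6.6-fold) and FANCI (5.11-fold) lowest. EXO1 and BLM read 74 and 66 in siYT, close to the floor.

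The G1 machinery did not move as a block. Of 28 genes, 8 were lower and 3 higher at 2-fold, with a median of -0.42. These are 28.6% and 10.7%, beside 6.68% and 8.06% of all genes, so the higher share is near that of all genes. Among the lower were CCNE2, the cyclin of S phase entry (723 and 111, 6.49-fold), CDK6, a G1 kinase with 3 sets from -2.08 to -1.58 (4322 and 1023, 4.23-fold), and SKP2, which marks CDKN1B for destruction (3.86-fold). MYC was 2.98-fold lower (8149 and 2738). The higher were cyclin D1, CCND1 (1047 and 2322, 2.22-fold), the inhibitor CDKN1C (2.17-fold) and the repressor E2F7 (2.08-fold), which in the mean of all sets came to 0.76, 0.39 and 0.59. The inhibitors CDKN1A (0.40) and CDKN1B (0.37) were higher by less than 1.5-fold. The p53 and arrest list had 4 lower genes and 1 higher of 24 compared (16.7% and 4.17%, beside 6.68% and 8.06% of all genes). PLK2, a kinase of the stress response, read 18397 in siNC against 1972 in siYT, 9.33-fold lower, and GADD45B was 4.18-fold lower. The BCL2 family list had 2 higher and 1 lower of 14 (14.3% and 7.14%, beside 8.06% and 6.68% of all genes). The pro-death genes BCL2L11 (2.45-fold) and BAD (2.24-fold) were higher and BCL2 was at least 5.15-fold lower (323 and under the floor). In the mean of all sets the 3 were at 0.42, 0.45 and -0.71. The pro-death BOK (-0.93) and PMAIP1 (-0.88) lay below 0 and BMF (0.89) above it, all under 2-fold.

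Steroid synthesis changed at a few enzymes. Of 23 genes for cholesterol import and steroid synthesis, 4 were at least 2-fold higher (17.4%, beside 8.06% of all genes) and 0 lower. The median was 0.10. CYP19A1, the aromatase that makes oestrogens, read 184 in siNC against 7213 in siYT, 39.2-fold higher and the highest of all genes above the floor on both arrays. Of its other 6 sets, 1 read 2.42 in siNC and 761 in siYT, at least 12.1-fold higher, and another 0.550 and 86.9, at least 1.39-fold higher, while 4 were at the floor on both arrays. CYP11A1, which cleaves the side chain of cholesterol, read 81.4 in siNC against 1056 in siYT, 13-fold higher from a level near the floor. HSD11B1, which regenerates active glucocorticoid, read 229.9 in siNC against 2137 in siYT, 9.3-fold higher. HSD3B2, the step after CYP11A1, went from under the floor to 179, at least 2.86-fold higher. The remaining steps stayed under 2-fold by their representative sets. STAR, which carries cholesterol into mitochondria, read 1284 in siNC and 1227 in siYT (-0.07), and the electron donor POR (0.08) was level. FDX1, another electron donor, was at 0.10, but its 3 sets ran from 0.10 to 1.07. The oestradiol-forming HSD17B1 differed by -0.43 at a low level (148 and 109.8). Other HSD17B genes ran from -0.61 for HSD17B12 to 0.54 for HSD17B11. AKR1C1 (-0.08), AKR1C2 (-0.06) and AKR1C3 (-0.22) were within 1.5-fold, and their near-identical sequences may not be read apart.

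Granulosa hormones and receptors showed 2 higher and 5 lower genes among 18 (11.1% and 27.8%, beside 8.06% and 6.68% of all genes). The activin subunit INHBA read 17149.8 in siNC against 5097 in siYT (3.36-fold lower), and follistatin, FST, which binds activin, read 19442 in siNC against 4236 in siYT (4.59-fold lower, 3 sets from -2.40 to -2.20). FSTL3, another activin binder, was 2.49-fold lower. KRT18 read 48635 in siNC against 10098 in siYT, 4.82-fold lower, while its partner KRT8 differed by -0.45. The oocyte growth factor KITLG was 2.04-fold lower (-0.89 in the mean of all sets). GJA1, the gap junction protein of granulosa cells, was 2.21-fold higher (17777 and 39368) and the nuclear receptor NR2F1 3.84-fold higher (393 and 1509). The identity factors differed little, with FOXL2 at 0.14 (659 and 726), GATA4 at 0.16, GATA6 at 0.44, WT1 at 0.42 and RUNX2 at 0.22. The progesterone receptor PGR was level (489 and 485), and INHA was near the floor on both arrays (70.5 and 66.1).

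Genes of the ovulatory matrix went both ways, with 5 of 17 higher and 3 lower (29.4% and 17.6%, beside 8.06% and 6.68% of all genes). The protease ADAMTS1, which cuts versican in the cumulus matrix, read 7851 in siNC against 622 in siYT, 12.6-fold lower. PTX3, which cross-links hyaluronan in that matrix, was 5.1-fold lower (18913 and 3705), and the plasminogen activator PLAU 2.99-fold lower. Versican, VCAN, was 3.76-fold higher (4251 and 16001) with 5 sets between 1.38 and 2.35. HAS2, which makes hyaluronan, and PTGS2, which makes prostaglandins, were under the floor in siNC and read 211 and 192 in siYT. The hyaluronan-binding TNFAIP6 was 3.6-fold higher from a low level (112 and 402), and cathepsin L, CTSL, was 2.34-fold higher (6267 and 14665). With the floor at the 75th percentile the upward count was 2, since HAS2 and PTGS2 read under that floor in siYT and TNFAIP6 just above it.

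Several other genes among the highest after knockdown were near the floor in siNC. ANGPTL4, an inhibitor of lipoprotein lipase, read 106 in siNC against 2325 in siYT, 22-fold higher. The lipid transporter ABCA8 read 65.7 in siNC against 1345 in siYT, 20.5-fold higher, with siNC just above the floor. IGFBP5, an IGF-binding protein, read 147 in siNC against 2239 in siYT (15.2-fold), and GLDN, an adhesion protein of the node of Ranvier, 99.9 in siNC against 1438 in siYT (14.4-fold). The protease inhibitor SERPINA5 was 11.5-fold higher and the formyl peptide receptor FPR3 9.32-fold higher. ANTXR2, a collagen-binding receptor also known for anthrax toxin, began from a clear level, with 809.7 in siNC against 8425 in siYT, 10.4-fold higher. Its other set above the floor on both arrays was 10.4-fold higher too, and 2 sets under the floor in siNC were at least 8.22-fold and at least 2.46-fold higher. The creatine transporter SLC6A8 was 8.79-fold higher, with 3 sets from 1.97 to 3.14. TSPAN13 (8.48-fold), the actin capping protein TMOD1 (372 and 2956, 7.95-fold), the pseudokinase TRIB2 (877 and 6881, 7.85-fold), complement C7 (7.76-fold) and the BMP modulator BMPER (7.49-fold) completed the range down to 7.40-fold. That last value belongs to TAF9B, whose sets disagreed: they ran from -1.94 to 2.89, and their mean was -0.05. TMEFF2 was 10.4-fold higher by a shared set. Without it the value was 0.08 in log2, from a set not above the floor on both arrays.

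Several of the lowest genes stood outside the cell cycle lists. HMOX1, which degrades haem, read 15719.9 in siNC against 769 in siYT, 20.4-fold lower and the lowest above the floor on both arrays. MTFR2, a regulator of mitochondrial fission, read 702 in siNC against 89.1 in siYT (7.87-fold; -0.85 in log2 with the floor at the 75th percentile). The secreted carboxypeptidase CPA4 read 14806 in siNC against 1235 in siYT, 12-fold lower. NPPB, a natriuretic peptide, was 8.25-fold lower (2419 and 293) and OXTR, the oxytocin receptor, 7.17-fold lower (3407 and 475). The glutathione-degrading enzyme CHAC1 read 1726 in siNC against 230.1 in siYT (7.5-fold), and the interleukin-12 subunit IL12A 745 in siNC against 105 in siYT (7.08-fold). Among genes under the floor in siYT, the transcription factor ZNF367 was lowest, from 916, at least 14.6-fold. Among genes under the floor in siNC, the protocadherin PCDHB14 was highest at 509 (at least 8.13-fold), ahead of the esterase AADAC at 459 (at least 7.33-fold). CES1, a carboxylesterase, read 335 (at least 5.35-fold), and NR4A2, an orphan nuclear receptor, 316 (at least 5.05-fold).

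Collagen genes past 2-fold were all higher. Of 34 collagen and collagen-modifying genes, 13 were at least 2-fold higher, beside 8.06% of all genes, 0 were lower and 29 lay above 0, with a median of 0.68. COL4A6, of basement membranes, read 346 in siNC against 1486 in siYT (4.3-fold), and COL6A3, a microfibrillar chain, 328 in siNC against 1169.9 in siYT (3.56-fold). The lysyl hydroxylases PLOD2 (8793 and 24621, 2.8-fold) and PLOD1 (2.67-fold) modify collagen before secretion. The fibrillar COL1A2 was just inside the threshold at 2.03-fold, COL5A1 was 2.33-fold higher and COL1A1 was level (0.03). Averaged over all sets, 7 collagen genes were past 2-fold. Of 35 matrix glycoproteins and proteoglycans, 10 were higher and 4 lower (28.6% and 11.4%, beside 8.06% and 6.68% of all genes). LUM, lumican, a collagen-binding proteoglycan, read 276 in siNC against 3355 in siYT (12.1-fold) by a shared set, while its own set reached 91.4 in siYT from under the floor (0.55). Decorin, DCN, was 6.46-fold higher (165 and 1068). MGP, which inhibits calcification, read 7318 in siNC against 46956 in siYT, 6.42-fold higher. Tenascin C, TNC, was 4.12-fold higher (5082 and 20922), and the basement membrane proteins NID2 (4.47-fold) and LAMA4 (3.55-fold) were higher too. On the lower side stood THBS1, thrombospondin 1 (22894 and 3690.0, 6.2-fold), whose 6 sets ran from -3.52 to -0.21, and fibrillin 2, FBN2 (4.18-fold).

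Of 28 integrin and focal adhesion genes, 5 were higher (17.9%, beside 8.06% of all genes) and 0 lower. The collagen-binding integrins ITGA1 (260.1 and 2365, 9.09-fold, 3 sets from 2.54 to 3.18), ITGA2 (2.92-fold) and ITGA11 (2.65-fold) were among them, with the laminin-binding ITGA7 (850.3 and 4373, 5.14-fold). PARVA, a focal adhesion adaptor, lay just under the threshold at -0.99. ITGA11 came to 0.79 in the mean of all sets. Of 22 matrix proteases and inhibitors, 5 were lower (22.7%, beside 6.68% of all genes), led by ADAMTS5 (3.86-fold) and ADAM12 (5519 and 1488, 3.71-fold). The plasminogen activator receptor PLAUR, the 1 higher gene (4.55%, beside 8.06% of all genes), was 3.02-fold higher. Averaged over all sets, 1 protease gene was past 2-fold downward.

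Contractile genes past 2-fold were all lower. Of 29 actin and contractile genes, 6 were lower (20.7%, beside 6.68% of all genes) and 0 higher, with a median of -0.03. CNN1, calponin, read 1509 in siNC against 352 in siYT (4.29-fold), and the smooth muscle actin ACTA2 11044 in siNC against 3172 in siYT (3.48-fold). The mean of all ACTA2 sets was -0.60, with the other sets at the floor on both arrays. The formin DIAPH3 was 4.19-fold lower. Transgelin, TAGLN, was 3.25-fold lower by its representative set and 8.56-fold by another, both shared between transcripts, and its own set read 13.8 and 82.1, 0.39 in log2. Of 24 intermediate filament and junction genes, 6 were lower and 2 higher (25% and 8.33%, beside 6.68% and 8.06% of all genes). The claudin CLDN11 was 4.32-fold lower (25029 and 5792), while plakoglobin, JUP, was 7.38-fold higher from a low level (75.6 and 558), and cadherin 11, CDH11, 2.63-fold higher (3707 and 9740.4). KRT7 was 2.44-fold lower by a shared set and 0.64 without it.

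**Figure D4:**
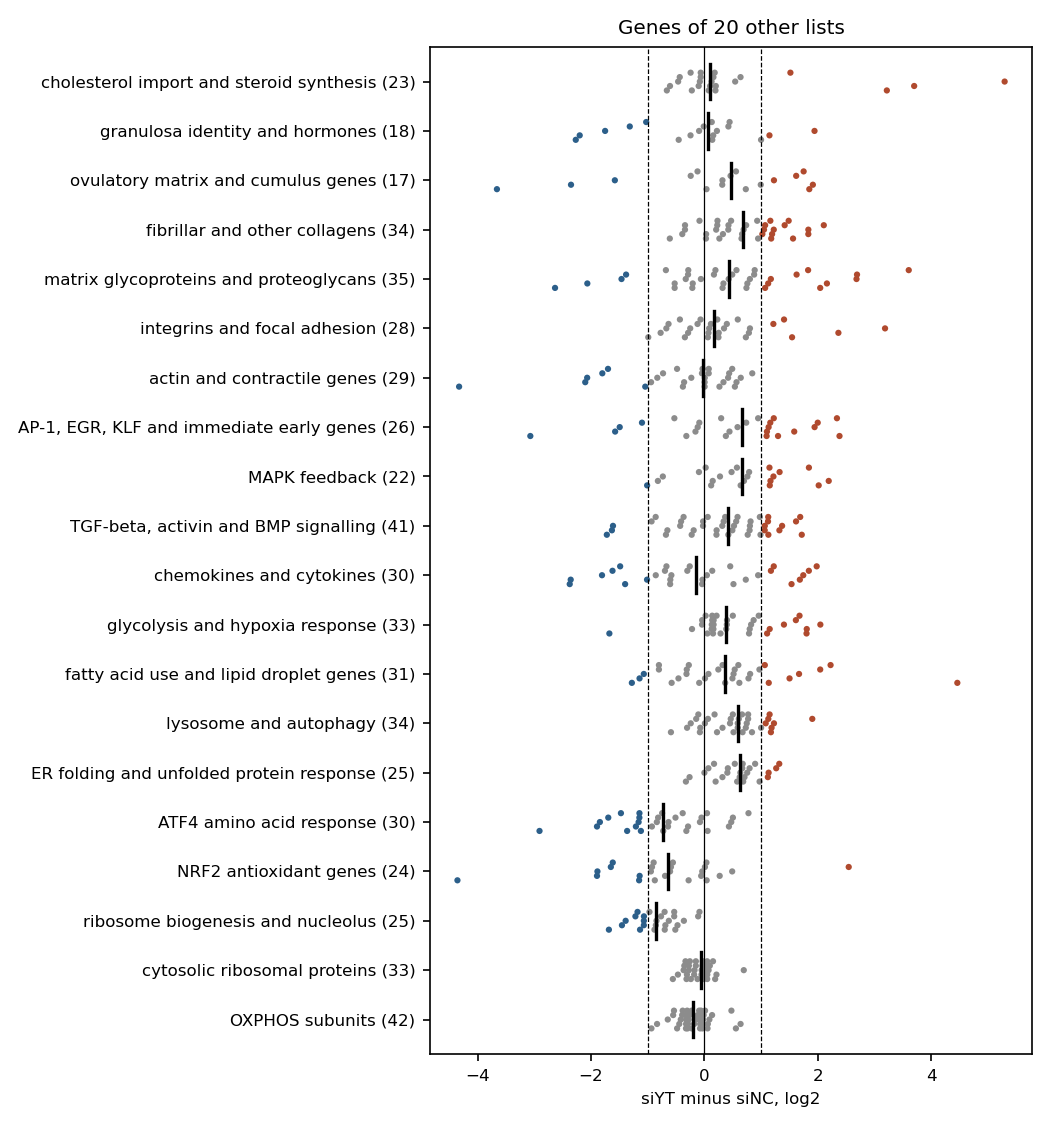
Each point is a gene, placed by log2 siYT minus siNC, in 20 lists with the number of genes compared in brackets, black bars at the medians and dashed lines at 2-fold. The collagen list has a median of 0.68 with 0 genes past 2-fold on the lower side. The ribosome biogenesis list has a median of -0.84, and the ribosomal protein list stays within 2-fold.

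Immediate early and MAPK feedback genes past 2-fold were mainly higher. Of 26 AP-1, EGR, KLF and related genes, 11 were higher and 4 lower (42.3% and 15.4%, beside 8.06% and 6.68% of all genes). The median was 0.66. EGR1, a zinc-finger factor induced by growth signals, read 556 in siNC against 2219 in siYT (3.99-fold), and its other sets were 5.79-fold and 5.58-fold higher. MAF (5.21-fold), JUNB (3.0-fold) and JUND (2.46-fold) were higher, and FOSL1 (2.14-fold) and KLF5 (2.81-fold) lower. Of 22 MAPK feedback genes, 8 were higher and 1 lower (36.4% and 4.55%, beside 8.06% and 6.68% of all genes, median 0.67). DUSP6, the phosphatase that silences ERK, read 421 in siNC against 1703 in siYT (4.04-fold, 3 sets from 1.70 to 2.92). SPRY1, which blocks RAS signalling, was 4.57-fold higher (326 and 1488), and ERRFI1, an inhibitor of the EGF receptor, 2.51-fold higher. Averaged over all sets, 4 MAPK feedback genes were past 2-fold.

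Of 41 TGF-beta, activin and BMP genes, 10 were higher and 3 lower (24.4% and 7.32%, beside 8.06% and 6.68% of all genes). The inhibitory SMAD7 (755 and 2315, 3.06-fold) and SMAD6 (2.18-fold), the mediator SMAD3 (2.18-fold), the targets ID2 (2.09-fold) and ID4 (3.29-fold) and the ligand BMP6 (2.5-fold) were higher. GREM1, a BMP antagonist (3.29-fold), and SMURF2, a ubiquitin ligase for SMADs (15397 and 4972, 3.1-fold, 4 sets from -1.82 to -1.33), were lower with TGFB2. The upward count was 3 in the mean of all sets. Of 24 genes of the PDGF, FGF, VEGF and angiopoietin list, 5 were higher and 6 lower. Those are 20.8% and 25%, beside 8.06% and 6.68% of all genes. The ligand PDGFD read 549 in siNC against 3317 in siYT (6.04-fold) and the receptors PDGFRA (6.31-fold; 0.81 in the mean of all sets) and PDGFRB (2.85-fold) were higher, while the co-receptor NRP2 was 2.48-fold lower with 9 sets from -1.67 to -0.55. The stem cell factor receptor KIT went from 220.1 to under the floor. Of 17 IGF axis genes, 4 were higher and 2 lower (23.5% and 11.8%, beside 8.06% and 6.68% of all genes). IGFBP2 was 2.41-fold higher, and the insulin receptor substrate IRS2 was 2.24-fold lower.

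Other receptor pathways moved at single genes. Of 27 Wnt genes, 2 were higher and 2 lower, 7.41% each and near the shares of all genes. The antagonist DKK1 read 15795 in siNC against 4517 in siYT (3.5-fold lower), and SFRP4, another antagonist, was 3.1-fold higher. Of 19 Notch genes, 2 were higher (10.5%, beside 8.06% of all genes), NOTCH2 (6429 and 14753, 2.29-fold) and the effector HES1 (4.06-fold by shared sets). The remaining HES1 set gave -0.04, but was not above the floor on both arrays. Of 12 EGF family genes, ERBB3 alone was past 2-fold (3.56-fold lower), which is 8.33%, beside 6.68% of all genes. ERBB3 lost that size in the mean of all sets (-0.82). Of 35 cyclic AMP pathway and CREB target genes, 4 were higher (11.4%, beside 8.06% of all genes) and 0 lower. The higher were PRKACA, the catalytic subunit of protein kinase A (117 and 748, 6.4-fold, its other set 0.74 in log2), RGS2, which ends G protein signals (134 and 813, 6.06-fold), and the phosphodiesterases PDE7B (2.59-fold) and PDE4B (2.31-fold). Among 26 G protein coupled and hormone receptor genes, 7 were higher and 4 lower (26.9% and 15.4%, beside 8.06% and 6.68% of all genes). The higher included the vitamin D receptor VDR (2.87-fold) and the bradykinin receptor BDKRB2 (2.86-fold). On the guidance list, SLIT2, a repellent cue, was 3.01-fold higher with 3 sets from 1.59 to 1.91, and EPHA4 2.33-fold higher.

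Cytokines split evenly, with 7 higher and 7 lower among 30 (23.3% each, beside 8.06% and 6.68% of all genes). The lower were the interleukin IL6 (21840.1 and 4212, 5.19-fold), the receptor IL7R (5.12-fold) and the chemokines CCL2 (3.49-fold), CXCL2 (2.8-fold), CXCL8 (35516 and 13481, 2.63-fold), CXCL3 (3.07-fold) and CXCL1 (2.02-fold). Among the higher were the death ligand TNFSF10 (TRAIL), at 537 in siNC against 2118 in siYT (3.94-fold, 3 sets from 1.98 to 2.34), IL11 (3.58-fold) and IL1B (2.25-fold). Of 22 NF-kappaB genes, 1 was higher (4.55%) and 2 were lower (9.09%), near the 8.06% and 6.68% of all genes. Their median was -0.08. Of 31 interferon-stimulated genes, 4 were higher (12.9%, beside 8.06% of all genes), IFITM1 (2.55-fold), OAS1 (2.54-fold), GBP2 (2.36-fold) and IFI6 (2.11-fold), and the median was 0.11.

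Amino acid response genes past 2-fold were all lower, and folding genes of the endoplasmic reticulum past it were all higher. Of 30 ATF4 targets and partners, 11 were lower (36.7%, beside 6.68% of all genes) and 0 higher (median -0.74). ASNS, asparagine synthetase, read 11647 in siNC against 3247 in siYT (3.59-fold), and PSAT1, of serine synthesis, 22830.0 in siNC against 7053 in siYT (3.24-fold). The cystine transporter SLC7A11 read 16641 in siNC against 4479 in siYT (3.72-fold, 3 sets from -2.32 to -1.89), and PHGDH (2.21-fold) and SHMT2 (2.77-fold) were lower. ATF4 itself was at -0.38, and DDIT3 (-0.73) and TRIB3 (-0.82) were under 2-fold. Of 25 folding and unfolded protein response genes, 4 were higher (16%, beside 8.06% of all genes), 0 lower and 23 above 0 (median 0.63). The chaperone calreticulin, CALR, was 2.19-fold higher (3216 and 7049.9), CRELD2 2.17-fold higher (3431 and 7449.9), and HSPA5 was at 0.41, with its other set at 1.58. In the mean of all sets CALR came to 0.90.

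Antioxidant genes under NRF2 were lower in part, HMOX1 by most. Of 24, 7 were lower and 1 higher (29.2% and 4.17%, beside 6.68% and 8.06% of all genes, median -0.65). The quinone reductase NQO1 read 39604 in siNC against 12923 in siYT (3.06-fold, 3 sets from -2.0 to -1.62), GCLM, of glutathione synthesis, 12672 in siNC against 4039 in siYT (3.14-fold, 3 sets from -2.37 to -1.65), and SRXN1, sulfiredoxin, was 3.7-fold lower (7045 and 1906). BACH1, a repressor of HMOX1 and related genes, was 5.83-fold higher (598 and 3489) by its representative set. The mean of all BACH1 sets was 0.85, with the other sets at the floor on both arrays. TKT and ME1, which supply pentoses and NADPH, were 2.22-fold and 2.21-fold lower and fell under 2-fold in the mean of all sets (-0.92 and -0.63).

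Glycolytic and hypoxia genes were at least 2-fold higher for 8 of 33 and lower for 1, with 29 above 0 (median 0.39). The 8 and 1 are 24.2% and 3.03%, beside 8.06% and 6.68% of all genes. NDRG1, a hypoxia-induced gene, read 3419 in siNC against 14104 in siYT (4.12-fold), and VEGFA, the angiogenic factor, 8355 in siNC against 22083 in siYT (2.64-fold, 4 sets from 1.40 to 1.95). PFKFB3, which activates glycolysis, was 3.48-fold higher (1135 and 3953), and the carbonic anhydrase CA12 3.2-fold higher with 5 sets from 1.51 to 1.98. EPAS1, the hypoxia factor HIF2A, was 3.19-fold lower (17870.5 and 5595). Without shared sets the upward count was 4.

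Lipid droplet and fatty acid genes showed 7 higher and 3 lower among 31 (22.6% and 9.68%, beside 8.06% and 6.68% of all genes). The droplet coat PLIN2 read 1164 in siNC against 5442 in siYT (4.67-fold), HILPDA, which inhibits lipolysis, 782 in siNC against 3221 in siYT (4.12-fold), and PDK4, which turns cells from glucose to fat, was 2.83-fold higher. The synthetic enzyme FASN was 2.1-fold lower. Averaged over all sets, 3 were past 2-fold upward. Of 27 genes for cholesterol synthesis and uptake, 3 were lower (11.1%, beside 6.68% of all genes), ACAT2 (3.48-fold), FDPS (2.35-fold) and IDI1 (2.15-fold; -0.53 in the mean of all sets), and 0 were higher. Lysosomal genes past 2-fold were all higher, with 7 of 34 at 2-fold (20.6%, beside 8.06% of all genes) and 27 above 0 (median 0.59). Cathepsin K, CTSK, was 3.74-fold higher (167 and 625), and the lysosomal regulator TFEB 2.22-fold higher (239 and 529.7).

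Lists of constitutive genes give a contrast. Of 42 subunits of oxidative phosphorylation and 33 cytosolic ribosomal proteins, 0 were past 2-fold in either direction, and the medians were -0.20 and -0.05. All 25 ribosome biogenesis genes lay below 0, 9 of 25 were past 2-fold (36%, beside 6.68% of all genes), and the median was -0.84. The RNA helicase DDX21 read 10826 in siNC against 3369.6 in siYT (3.21-fold) and the assembly factor NOP16 was 2.74-fold lower (-0.67 in the mean of all sets).

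Some genes were read alike by 3 or more probe sets, which makes their direction independent of the choice of set. Ranked by the set that differed least, the foremost on the higher side were ITGA1, the growth factor PTN (1591 and 7397, sets from 2.22 to 2.66), EGR1, TNFSF10, SLC6A8, the adhesion protein CADM3 (1.74 to 2.14), DUSP6, SLIT2, CA12 and the heparan sulfotransferase HS2ST1 (1.48 to 1.72). On the lower side they were FST, CDK1, DEPDC1 (-2.95 to -2.05), SLC7A11, CENPN, YAP1, AJUBA, SKP2, the nuclear lamina gene TMPO (-2.01 to -1.70) and GCLM.

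Several of these sizes rest on the choice of probe set or floor. The mean of all probe sets counts a set at the floor on both arrays as 0, which draws the mean toward 0. The other ASNS set, for example, read 43.0 in siNC and 5.33 in siYT, both under the floor. For such genes a mean under 2-fold does not show that sets disagree. For other genes, sets above the floor on both arrays did disagree in direction. Among these were ID4 (-0.54 to 2.84), SMAD3 (-0.29 to 1.12), OAS1 (-0.26 to 1.35) and BCL2L11 (-0.58 to 1.30). COL1A2 (-0.10 to 1.87), COL5A1 (-0.12 to 1.22) and KRT7 (-1.29 to 0.64) did so as well. In the mean of all probe sets, genes described above that came under 2-fold were CCNB2 (-0.79), ADAMTS5 (-0.87), ASNS (-0.92), FBN2 (-0.96), IRS2 (-0.85), CXCL2 (-0.80), FASN (-0.53), KRT7 (-0.08), BMP6 (0.44), COL1A2 (0.93), COL5A1 (0.65), EPHA4 (0.70), ID4 (0.91), JUND (0.69), NOTCH2 (0.73), OAS1 (0.54), PDE4B (0.75), PDE7B (0.79), PDK4 (0.88), PTGS2 (0.83), SMAD3 (0.23), SMAD6 (0.37), TFEB (0.57) and VDR (0.73). Without sets shared between transcripts, they were CALR (0.97), CXCL2 (-0.92), MCM5 (-0.55), NCAPH2 (0.64), DCN (just under 2-fold), GADD45B (-0.96), IDI1 (-0.11), ME1 (-0.73), TKT (-0.61), PLAUR (0.71) and SHMT2 (-0.74). With the floor at the 75th percentile, genes read low on both arrays could not reach 2-fold, among them CDC45 (-0.69), EXO1 (-0.46), BLM (-0.16), MYBL2 (-0.21), NCAPH (-0.17), CDC6 (-0.91), CCNE2 (-0.89), IL12A (-0.94), PCDHB14 (0.39), AADAC (0.24), JUP (0.52), JUNB (0.59), HES1 (0.77), IL11 (0.99), CTSK (0.68), ERBB3 (-0.74), AURKB (-0.79), MKI67 (-0.53), MCM5 (-0.14), KLF5 (-0.24), FASN (-0.57), BAD (0.74), OAS1 (0.28), PDE4B (0.79), PDE7B (0.39), TFEB (0.45), VDR (0.57) and PRKACA (0.94). That floor left 2-fold lower counts of 2 for homologous recombination, 7 for licensing, 8 for polymerases, 14 for centromeres and kinetochores, 7 for condensation and 4 for the G1 list. Without shared sets the lower counts were 8 for licensing, 4 for G1, 4 for NRF2 genes and 4 for cytokines. The higher counts were then 6 for AP-1 and EGR, 6 for matrix glycoproteins and 4 for lysosomal genes.

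The 4 arrays were also fitted together by limma, with additive terms for knockdown and 8Br-cAMP, which leaves 1 residual degree of freedom. That residual is how far the knockdown difference departs between the 2 pairs of arrays. The p-values set the mean knockdown difference of the pairs against that residual, after limma drew it toward a variance pooled over all genes. They therefore do not measure variation between cultures. At a Benjamini-Hochberg level of 0.05 this fit passed 122 genes upward and 191 downward. It called 20 mitotic, 19 spindle, 17 centromere and kinetochore, 8 polymerase, 6 homologous recombination, 5 licensing and 2 condensation genes lower. Of the YAP/TAZ target list it called 4 lower, beside 9 past 2-fold. Over all 13063 genes compared, the fit gave 1368 higher and 1409 lower at an unadjusted p under 0.05. With 122 upward and 191 downward adjusted calls among all genes, 0 in a short list is no result about that list. Several lists with genes past 2-fold had 0 calls in the fit. Among them were the higher genes of the collagen list (12 at an unadjusted p under 0.05), TGF-beta (8), MAPK feedback (9), lysosome (14) and integrin lists (6). Others were the higher genes of the hormone receptor (5), cytokine (6), cyclic AMP (4), IGF (5), folding (6) and interferon lists (1). The lower genes of the ribosome biogenesis (10) and PDGF lists (5) had 0 calls as well. The same held for the higher genes of the G1, granulosa, Wnt, NF-kappaB and BCL2 lists. It also held for the lower genes of the Wnt, NF-kappaB, BCL2, fatty acid, TGF-beta and guidance lists.

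The same knockdown under 8Br-cAMP was read on the other 2 arrays, which share no array with siYT and siNC but are no replicate of them. Over the same genes, 922 were at least 2-fold higher there (7.06%) and 1349 lower (10.3%). The 343 genes higher in both pairs are 32.6% of those higher without 8Br-cAMP and 37.2% of those higher with it. The 406 lower in both are 46.5% and 30.1%, and 44 went past 2-fold in opposite ways. The siYT+8Br-cAMP array had a 3' to 5' ratio of 1.35 for ACTB, against 1.07 to 1.14 on the other 3, and its part in the differences was not tested. Of the 182 cell cycle genes, 121 were at least 2-fold lower there (median -1.40), and 105 were so in both pairs. On the YAP/TAZ target list 6 of the 9 lower genes were lower in both pairs, and 4 of the 13 higher collagen genes were higher in both. CYP19A1 was 3.78-fold higher under 8Br-cAMP (6558 and 24784) and CYP11A1 3.86-fold, against 39.2-fold and 13-fold without it. Another CYP19A1 set, under the floor in siNC, was at 4.23 in log2 (357 and 6706), against at least 3.60. HSD3B2 was 1.39-fold higher, against at least 2.86-fold, and INHBA, lower without 8Br-cAMP, was at 0.10. ANGPTL4 was 13.2-fold higher under 8Br-cAMP, ANTXR2 10.1-fold and HSD11B1 8.64-fold, against 22-fold, 10.4-fold and 9.3-fold without it. Other genes highest without 8Br-cAMP differed little with it, among them IGFBP5 (0.62), ITGA1 (0.29), TRIB2 (0.49) and TMOD1 (0.77). IGFBP5 read 1031 and 1586 there and ITGA1 1006 and 1229, so that siNC+8Br-cAMP was above siNC for both. JUP (-0.78) and BACH1 (0.24) also lost their higher reading. No test of these differences between the pairs was made.

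**Figure D5:**
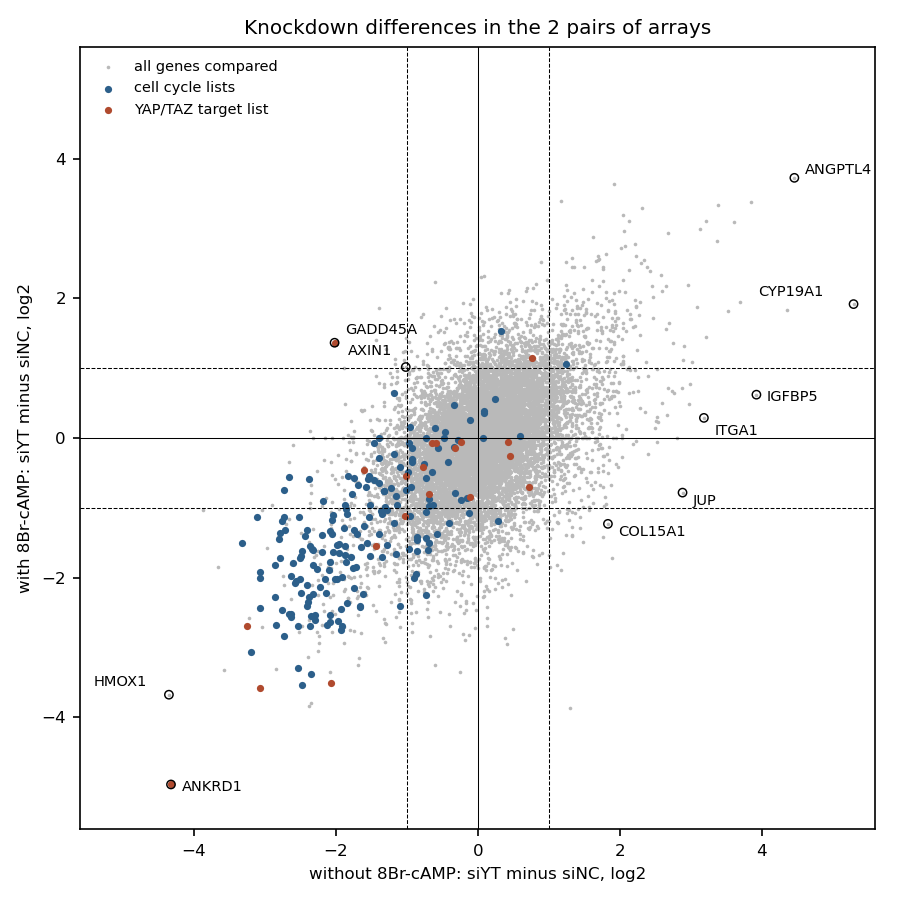
Each point is a gene, with the log2 knockdown difference without 8Br-cAMP on the horizontal and with it on the vertical axis, and dashed lines at 2-fold. Cell cycle genes (blue) lie mainly in the lower left, with medians of -1.76 and -1.40. GADD45A, AXIN1 and COL15A1 lie past 2-fold in opposite directions.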

How the data were processed

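RNA from 4 samples of KGN cells was read on Affymetrix HG-U133 Plus 2.0 arrays, 1 array per group. The deposited values are linear intensities per probe set. Per the labels, they were made with RMA in Affymetrix Expression Console (version not given in the sources used here), but they are not on a log2 scale, and the 2% trimmed mean is 500.1 on every array, so the background correction and summary are unknown. An unknown background correction mainly affects low readings.

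Of 54675 probe sets, 41097 carried 1 gene symbol in the platform annotation, 1801 several and 11777 none, and the last 2 kinds were left out. Intensities below the table's median, 62.6, were set to it, and log2 of the deposited values was taken. The probe set with the highest mean log2 over the 4 arrays stood for its gene. No scaling was added. With 1 array a group, siYT against siNC alone allows no test, so genes were counted past 2-fold, and medians and counts per list are given. An additive fit over the 4 arrays is an alternative. Arrays have no counting depth; their number limits the precision.

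Genes named were the siRNA targets, the 20 highest and 20 lowest, the 10 largest bounds each way, the 10 each way read alike by 3 or more probe sets, and in each list up to 6 with the largest difference and all past 2-fold where these were 8 or fewer. All compared members of the YAP/TAZ target, TEAD and VGLL, Hippo, steroid and granulosa lists could be named too. A further 42 list members were chosen for naming after their values were seen: ATF4, AURKB, BIRC5, BMP6, CCNA2, CCNB1, CCNB2, CCND1, CDKN1A, CDKN1B, CDKN1C, COL1A1, COL1A2, COL5A1, CXCL1, CXCL2, CXCL3, CXCL8, DDIT3, E2F7, FASN, FOSL1, FOXM1, HSPA5, ID2, IL1B, JUND, KLF5, LAMA4, MCM3, MCM4, MCM5, MCM7, MKI67, MYC, NCAPH2, PCNA, PHGDH, SMAD3, SMAD6, TNC and TRIB3. The comparison and the 48 gene lists were chosen with earlier results of these data known. Promoters are RefSeq's on GRCh38.p14, and none was given for CCN1 and HMOX1.

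The alternatives were no floor, a floor at the 75th percentile, the mean over all probe sets, no shared probe sets (suffix _s_at, _x_at or _a_at), quantile normalization, median centring, a 1.5-fold threshold and an additive limma fit over the 4 arrays (knockdown and 8Br-cAMP, 1 residual degree of freedom, Benjamini-Hochberg level 0.05). A representative probe set chosen by raw mean intensity was added after seeing the data. The count and fit scripts were tested on simulated data. Python (pandas 2.3.3, numpy 2.4.6) and R 4.3.3 (limma 3.58.1) were used.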

Additional observations from a re-analysis of the deposited data

Results flagged for a closer look

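On the gene lists, 3 genes went past 2-fold in opposite directions without and with 8Br-cAMP. The difference between the pairs was not tested. GADD45A, an arrest gene of the stress response, was lower without 8Br-cAMP, from 16131 to 3979 (log2 -2.02), and higher with it, from 2799 to 7209 (1.36). AXIN1, a scaffold of the beta-catenin destruction complex, was lower without it, from 146 to 72.4 (-1.02), and higher with it, from under the floor to 127 (1.02), all near the floor. COL15A1, a basement membrane collagen, was higher without it, from under the floor to 223 (1.83), and lower with it, from 401 to 171 (-1.23). The siNC+8Br-cAMP reading of GADD45A was below that of siNC, and that of COL15A1 was above it.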

How the results depend on the processing

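The counts of 1053 higher and 873 lower genes became 500 and 511 with the floor at the 75th percentile and 2556 and 2170 at 1.5-fold. The mean over all probe sets gave 613 higher genes. The additive limma fit over the 4 arrays called 122 higher and 191 lower at an adjusted p of 0.05, with 1 residual degree of freedom. The first of these alternatives hides differences among low readings by its construction. The mean over all probe sets counts sets at the floor on both arrays as 0, and the limma fit asks for a like difference in both pairs. Under no floor, quantile normalization, median centring, the set chosen by raw mean and no shared sets, the counts stayed within 1.5 times the main ones, and centring and quantile normalization moved the median of all genes by less than 0.1 in log2. Of the 305 genes past 2-fold that were named or stood among the candidates for naming, 228 kept their size in the mean of all sets and 1 turned, TAF9B (-0.055). Without shared sets 70 of them had no value, 214 kept it, 18 dropped under it and 3 turned, HES1 (-0.039), KRT7 (0.64) and TAGLN (0.39). The sets that gave the HES1 and TAGLN values were not above the floor on both arrays. In the limma fit 117 were called, 187 were not and AXIN1 turned (0.000106, adjusted p 1.00). The cause was not tested. No paired analysis was possible because the labels give no replicate numbers to pair, though the additive fit compares knockdown within each medium. Low intensities limit the folds of genes near the floor, and no value here has an error between cultures.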
